A study of Drosophila melanogaster with 2 samples.

Results

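The 300 strongest peaks of CG34367 that were called jointly from both libraries are described here by their place in the genome, their sequence, their nearest genes and their rank in each library. Binding was recorded by ChIP-seq from Drosophila melanogaster pupae taken whole at 24 hours, in a transgenic line that stably carries the protein fused to GFP at its C-terminus, with an antibody against GFP. The series holds 1 group of 2 biological replicates, and no untagged or mutant group was analysed here. The control library that the labels point to was not analysed here either, so the background at these peaks was not looked at. How many animals went into a library is left unsaid in the labels, and their sex was not collected. Since whole animals were used, a peak can come from few or many cell types. The joint list, filtered by its authors on the irreproducible discovery rate, has 6246 distinct intervals. The members were chosen by the deposited signal value of the joint list, a score per peak with a scaling that no source used here states. They are the first 300 distinct intervals in falling order of that score, or 4.80% of the joint peaks, and they hold 19.5% of the summed score. The remaining 5946 joint peaks serve as the comparison and are called the other joint peaks.

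CG34367 is a homeodomain protein. Homeodomains place a recognition helix in the major groove of DNA, and many of them bind short AT-rich sequences with a TAAT core. Transcription factors are often found in ChIP-seq both at promoters, next to the transcription start site (TSS), and at distant enhancers in introns or between genes. In the early pupa, pulses of the steroid hormone ecdysone drive the replacement of larval by adult tissues. The nearest gene to a peak is a label for its place, and whether CG34367 regulates it was not tested.

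The sequences at the summits of leading members are shown first, so that their base composition and any homeodomain cores can be read directly. Each line covers 50 bp on either side of the summit, read 5′ to 3′ on the plus strand of dm6 from the RefSeq genome of Release 6, and capitals mark TAAT or its complement ATTA. The 3 strongest promoter members whose windows touch no annotated UTR or coding exon are these.
CG14100, rank 1, chr3L:19590565-19590665: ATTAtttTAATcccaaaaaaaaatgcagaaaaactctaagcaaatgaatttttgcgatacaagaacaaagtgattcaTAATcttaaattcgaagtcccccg
larp, rank 3, chr3R:28326546-28326646: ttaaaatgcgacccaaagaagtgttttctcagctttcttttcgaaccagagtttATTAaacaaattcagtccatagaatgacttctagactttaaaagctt
CenG1A, rank 8, chr2L:13835409-13835509: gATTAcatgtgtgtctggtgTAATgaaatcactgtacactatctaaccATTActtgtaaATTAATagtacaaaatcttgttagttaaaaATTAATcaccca

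The corresponding 3 strongest members in introns show the same AT-rich composition. The window at CG11050 also holds the palindromic homeodomain sequence TAATTA.
CG11050, rank 4, chr2L:6612663-6612763: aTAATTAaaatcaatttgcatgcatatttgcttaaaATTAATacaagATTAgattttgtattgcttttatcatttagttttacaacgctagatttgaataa
Lk6, rank 6, chr3R:11761010-11761110: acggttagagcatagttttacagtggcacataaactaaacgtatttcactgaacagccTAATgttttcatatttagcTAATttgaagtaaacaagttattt
cbt, rank 12, chr2L:481036-481136: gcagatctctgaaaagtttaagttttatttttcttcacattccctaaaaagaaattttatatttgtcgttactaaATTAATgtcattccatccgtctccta

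The strongest members between genes include a pair near CG4004, whose summits lie 973 bp apart on the X chromosome. The window at CG31668 has neither TAAT nor ATTA.
CG4004, rank 5, chrX:12751345-12751445: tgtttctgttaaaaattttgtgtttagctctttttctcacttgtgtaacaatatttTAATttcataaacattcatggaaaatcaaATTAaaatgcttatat
CG4004, rank 9, chrX:12752318-12752418: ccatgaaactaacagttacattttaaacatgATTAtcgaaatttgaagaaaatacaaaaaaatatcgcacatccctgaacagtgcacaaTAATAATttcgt
CG31668, rank 15, chr2L:2202368-2202468: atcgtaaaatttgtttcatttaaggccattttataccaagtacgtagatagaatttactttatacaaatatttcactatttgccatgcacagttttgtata

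The remaining lines are the next members with TAATTA under the same limit on UTRs and coding exons. The window at CG18549 holds 3 stretches in capitals and that at Tcs5 holds 2.
CG18549, rank 10, chr3R:12449114-12449214: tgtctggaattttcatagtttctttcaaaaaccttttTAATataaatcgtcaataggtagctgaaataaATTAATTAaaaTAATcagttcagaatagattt
Tcs5, rank 25, chr3L:5139453-5139553: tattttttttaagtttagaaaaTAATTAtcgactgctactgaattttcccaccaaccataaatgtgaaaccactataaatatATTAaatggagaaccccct

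The windows of the members were AT-rich. Their GC content averaged 29.6% ± 6.51 (SD over 300 peaks), against 33.0% ± 9.05 (SD over 5946 peaks) for the other joint peaks. Flanks 400 bp from the summit averaged 44.6% GC for the members and 44.3% for the other joint peaks. In the libraries taken singly, the 300 strongest peaks averaged 31.3% GC in replicate 1 and 29.01% in replicate 2. Lower-ranked peaks of these libraries, taken to the length of the joint list, averaged 35.0% and 31.7%. The order held in each library, though the libraries also differed from each other. The gap was widest in promoters, at 29.1% for members and 35.0% for other joint peaks. It was 29.7% against 32.3% in introns, and 30.2% against 31.3% between genes. The dip was narrow, with a mean of 28.7% GC at the summit of the members against 32.7% for the other joint peaks. At 160 bp from the summit, toward the start of the plus strand, the values were 46.3% for the members and 43.5% for the other joint peaks.

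**Figure D1:**
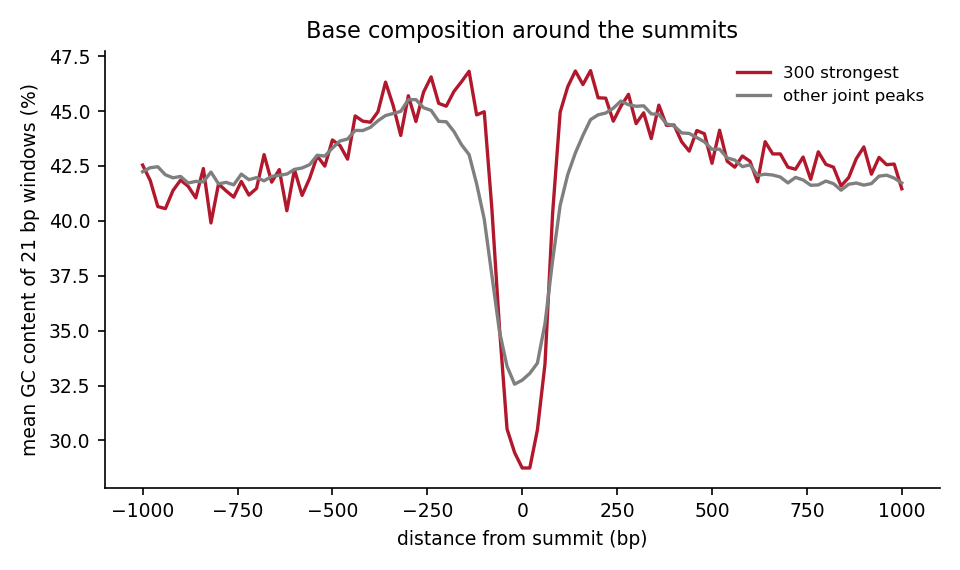
Mean GC content (%) in windows of 21 bp against distance from the summit (bp) for the 300 strongest joint peaks (red) and the other joint peaks (grey). The red line falls to 28.7% at the summit, below the grey line at 32.7%, and stands above it at 160 bp.

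TAAT or ATTA lay in 261 of the 300 member windows, 87.0% (exact 95% binomial interval 82.7 to 90.6%), against 75.6% (74.5 to 76.7%) of the windows of the other joint peaks and 51.7% of the member flanks. When the other joint peaks were weighted to the GC content of the members, their share was 84.1%, which lies inside the interval of the members. The longer sequence TAATTA, read on either strand since it is its own complement, lay in 41 member windows, 13.7% (9.99 to 18.1%), and in 9.13% (8.41 to 9.89%) of the other joint windows. Member flanks held it in 6.50%, and the weighted share of the other joint peaks was 11.3%, again inside the members' interval. The 300 strongest peaks of replicates 1 and 2 gave 13.3% and 12.3%, against 8.16% and 10.3% at their lower ranks. Promoter members held TAATTA in 24 of 142 cases, 16.9% (11.1 to 24.1%), against 8.47% (7.26 to 9.81%) of the other joint promoter summits and 11.9% of these after weighting. In introns 13 of 108 members held it, 12.04% against 9.08%, and between genes 4 of 47 members, 8.51% against 10.3%. Intervals in this text are exact binomial ones. They cover counting error alone and take each peak as an independent draw. No test was run between members and other peaks. Differences can be set against the spread of the libraries only where library values are given.

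A total of 12 sequences were searched on both strands. The related core TAATTG lay in 27 member windows, 9.00% against 10.5% of the other joint windows, and TAATCC, the core bound by Bicoid-class homeodomains, in 12, 4.0% against 3.41%. TAAACA, a forkhead sequence, lay in 47 member windows, 15.7% (11.7 to 20.3%), against 13.99% of the other joint windows. For each of these, the share of the other joint windows lay inside the members' interval. A paired-class dimer of TAAT cores was present in 3 member windows, 1.0% against 1.46% of the other joint windows. Sequences of other factor classes were rare at the members and at the other joint peaks alike. The GATA sequence AGATAAG lay in 2 member windows, 0.667% against 1.65% of the other joint windows. The E-box CAGCTG lay in 6, 2.0% against 2.51%, and the E-box CACGTG in 1, 0.333% against 0.605%. TGACTCA of AP-1 lay in 4, 1.33% against 0.757%, and TATCGATA of DREF in 1, 0.333% against 0.589%. The repeat CACACACA lay in 4, 1.33% against 1.75%. Each of these shares of the other joint windows lay inside the members' interval. GAGAGAG of the GAGA factor lay in 2 member windows. For GAGAGAG this was 0.667% of members (0.0808 to 2.39%) against 1.88% of the other joint windows, 0.865% after weighting for GC content, and 4.17% of the member flanks. Member flanks also held CACACACA in 5.5% and CAGCTG in 4.5%, so higher shares in flanks were not particular to GAGAGAG. A missing match says only that these letters are not within 50 bp of the summit.

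Members lay at promoters in 142 of 300 cases, 47.3% (41.6 to 53.2%), where promoter means at most 500 bp from a protein-coding TSS. Among the other joint peaks the share was 32.2% (31.0 to 33.4%). The 300 strongest peaks of replicate 1 and of replicate 2 gave 44.3% and 46.7%, a mean of 45.5% ± 1.65 (SD, n = 2), against 33.4% and 31.8% at their lower ranks, a mean of 32.6% ± 1.09 (SD, n = 2). The difference was thus larger than the spread between the libraries. Within the members the share was 13 of 25 at ranks 1 to 25, 42 of 75 at ranks 26 to 100 (56.0%, 44.1 to 67.5%), 45 of 100 at ranks 101 to 200 and 42 of 100 at ranks 201 to 300. Introns held 108 members, 36% (30.6 to 41.7%) against 44.1% (42.8 to 45.4%), and intergenic sequence 47, 15.7% (11.7 to 20.3%) against 22.1% (21.1 to 23.2%). In the libraries the 300 strongest had 37% and 36.3% in introns, and 18% and 15.7% between genes. Only 1 member lay in a 5′ UTR outside promoters, nearest to Nup153, and 2 lay in 3′ UTRs. Of these 2, rank 151 lay inside Lsd-2, with the nearest TSS, that of dob, 2519 bp away. The other, rank 249, was nearest to CG43389. Coding exons held 0 members (exact interval 0 to 1.22%), against 9 of the 5946 other joint summits.

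**Figure D2:**
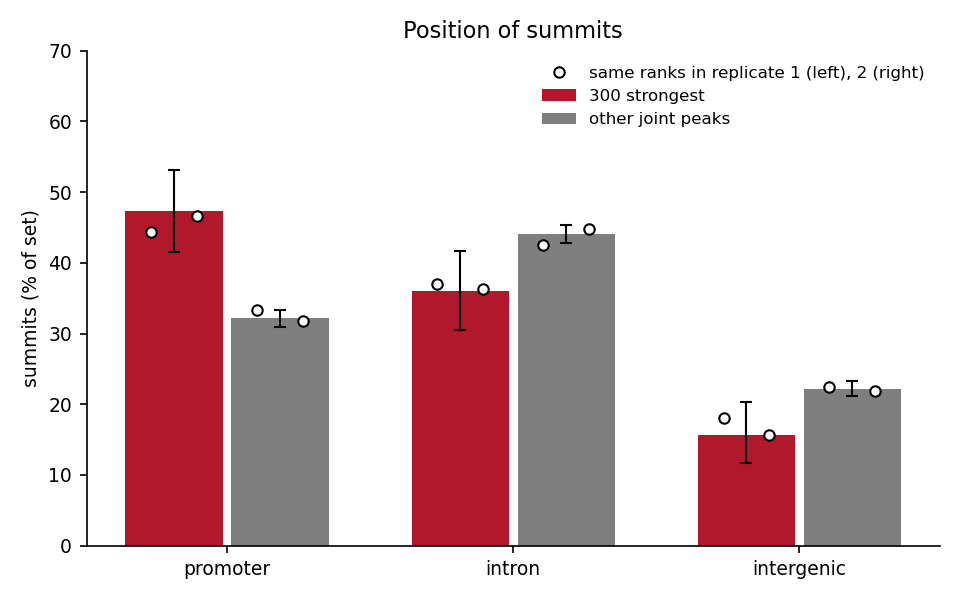
Share of summits (%) in promoters, introns and intergenic sequence for the 300 strongest joint peaks (red, left) and the other joint peaks (grey, right), with exact 95% binomial intervals and open circles for the same ranks of replicates 1 and 2. The promoter share is 47.3% in the strongest peaks and 32.2% in the others, and the circles keep that order in both libraries.

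Promoter members sat upstream of the TSS. Of the 142 promoter summits, 118 lay upstream of the nearest TSS, 83.1% (75.9 to 88.9%), at a median of 155.5 bp, and 24 lay downstream, at a median of 96.5 bp. Among the other joint promoter summits 75.6% (73.6 to 77.5%) lay upstream. A span of 50 bp, from 101 to 150 bp upstream, held 43 of the 142 promoter members, 30.3% (22.9 to 38.5%), against 14.1% (12.5 to 15.7%) of the other joint promoter summits. It held 27.8% and 27.1% of the promoter summits among the 300 strongest of replicates 1 and 2, against 12.9% and 14.5% at the lower ranks. The span was picked after its values were seen. Close to the TSS the order turned: 9 promoter members lay within 50 bp, 6.34% (2.94 to 11.7%), against 338 of 1913 other joint promoter summits, 17.7% (15.98 to 19.5%). In the libraries these shares were 8.27% and 4.29% for the 300 strongest, against 22.6% and 12.9% for the lower ranks. The median unsigned distance hid this, at 149.5 bp for members and 147 bp for the others. The side can be told most clearly where all TSS within the window lie on 1 strand, and there 82 of 97 members were upstream, 84.5% (75.8 to 91.1%), against 73.7% (71.3 to 76.1%) of the others. Promoters with a TSS on both strands held 45 members, 31.7% (24.1 to 40.0%), against 28.1% (26.1 to 30.2%) of the others.

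**Figure D3:**
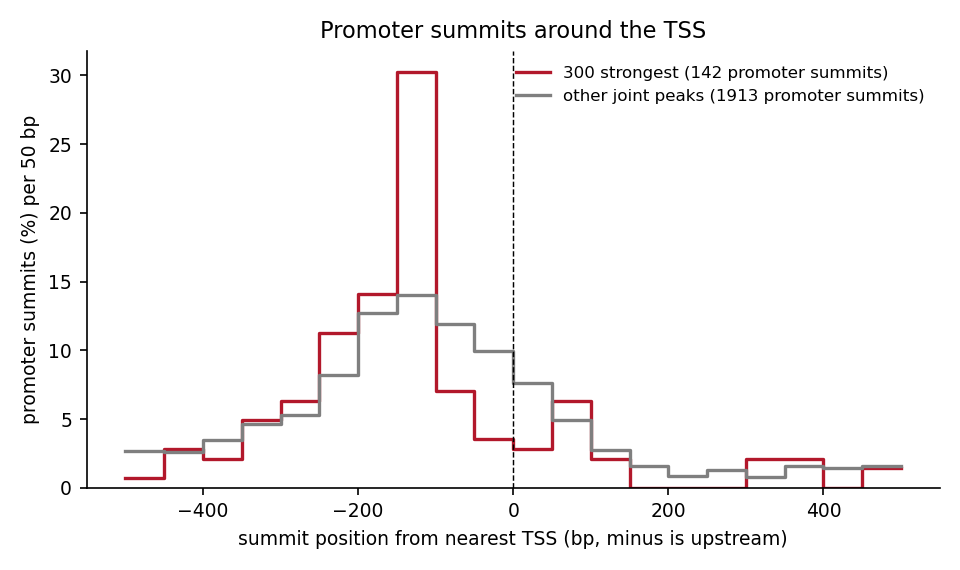
Share of promoter summits (%) in bins of 50 bp by position from the nearest TSS (bp, negative is upstream) for the 300 strongest joint peaks (red, 142 summits) and the other joint peaks (grey, 1913 summits). The tallest red bin, 101 to 150 bp upstream, holds 30.3% of the promoter members against 14.1% of the others.

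Members away from promoters also lay nearer to a TSS. The median distance over all members was 579.5 bp, against 1752 bp for the other joint peaks, and 645 and 598 bp for the 300 strongest of replicates 1 and 2 against 1736.5 and 1748 bp at the lower ranks. Over intron and intergenic summits alone the medians were 2464 bp for members and 4293 bp for the others. Over 10000 bp from any TSS lay 20 members, 6.67% (4.12 to 10.1%), against 15.8% (14.8 to 16.7%) of the others. The most distant was rank 88, on 2L from 21009373 to 21009700, in an intron of CG42238 and 40554 bp from its TSS. Rank 181, nearest to the Toll-family receptor gene Tollo, lay between genes at 25161 bp, and rank 240 lay in an intron of lilli, a gene for a nuclear AF4-family protein, at 21999 bp. Members had a median of 3 genes with a TSS within 10 kb, against 2 for the others. Of the 108 intronic members 80 lay in a first intron, 74.1% (64.8 to 82.0%), against 64.7% (62.8 to 66.5%) of the others, and the host gene had a median length of 24658 bp against 34809 bp. For 14 of the 108 the nearest TSS belonged to a gene other than the host. One of these was rank 12, nearest to cbt and inside an intron of ush.

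The arms carried members in about their share of the other joint peaks. There were 69 members on 3L, 68 on 3R, 61 on 2L, 58 on X and 44 on 2R, and 0 on chromosome 4. The X share was 19.3% (15.02 to 24.3%), against 19.6% of the other joint peaks and 17.6% of the assembled bases. Another member lay within 10 kb of 51 members, 17.0% (12.9 to 21.7%), and the libraries alone gave 18% and 20.0%. No such share was computed for 300 peaks of lower rank. At the Polycomb gene ph-p, ranks 19 and 81 lay 590 bp apart, the first 476 bp upstream of a TSS and the other 450 bp downstream of one. The ph-p pair overlapped the same peak of replicate 2, of rank 33, and 4 members in all shared a replicate 2 peak with another member. At cbt, ranks 12 and 152 lay 1034 bp apart. The clock gene vri had ranks 219 and 251, 598 bp apart in its introns. A chain of 4 members on 3R, led by ranks 119 and 135, ran past CG18404 and heca with gaps of 6368, 3640 and 7064 bp.

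In the libraries taken singly, each of the 300 members had an overlapping peak in both lists. Member ranks ran from 1 to 1199 in replicate 1, with a median of 150.5, and from 1 to 976 in replicate 2, with a median of 153.5. Since the joint score was made from both libraries, high ranks in each follow from the choice and are given as a description. Both libraries placed 207 of the members among their own 300 strongest, 69.0% (63.4 to 74.2%), replicate 1 alone 43, replicate 2 alone 48, and neither 2. All of ranks 1 to 25 were among the 300 strongest of both, as were 72 of 75 at ranks 26 to 100, 86 of 100 at ranks 101 to 200 and 24 of 100 at ranks 201 to 300. Beyond the limit, at joint ranks 301 to 600, 1 of 300 was. Library ranks differed by more than 2-fold for 131 members and by more than 4-fold for 35, and Spearman's rho between the library ranks was 0.35 over the 300 members, a range cut by the choice itself. The better rank was in replicate 1 for 149 members, whose windows averaged 30.7% ± 5.27 GC (SD over peaks), and in replicate 2 for 146, at 28.5% ± 7.46. Whether base composition set this difference was not tested.

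The limit at rank 300 fell in a flat stretch of the score. The next to last member, at the promoter of CG14502, had a signal of 991.2, and the last, in an intron of spen, a gene for a nuclear RNA-binding protein, had 990.9. Just outside were a peak in an intron of Raf with 987.4 and one near pxb with 987.2. Signals of the members ran from 991 to 4557, with a median of 1303. Those of the other joint peaks ran from 137 to 987, with a median of 239. Summits of the libraries lay a median of 12 bp apart at members and 26 bp at the 5669 other joint peaks found in both lists, and within 50 bp at 95% of members against 74.4% of those. Peaks were 331 bp wide at the median for members, with quartiles of 308 and 366 bp. The others had a median of 380 bp and quartiles of 220 and 380 bp, so their median and upper quartile were the same value.

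**Figure D4:**
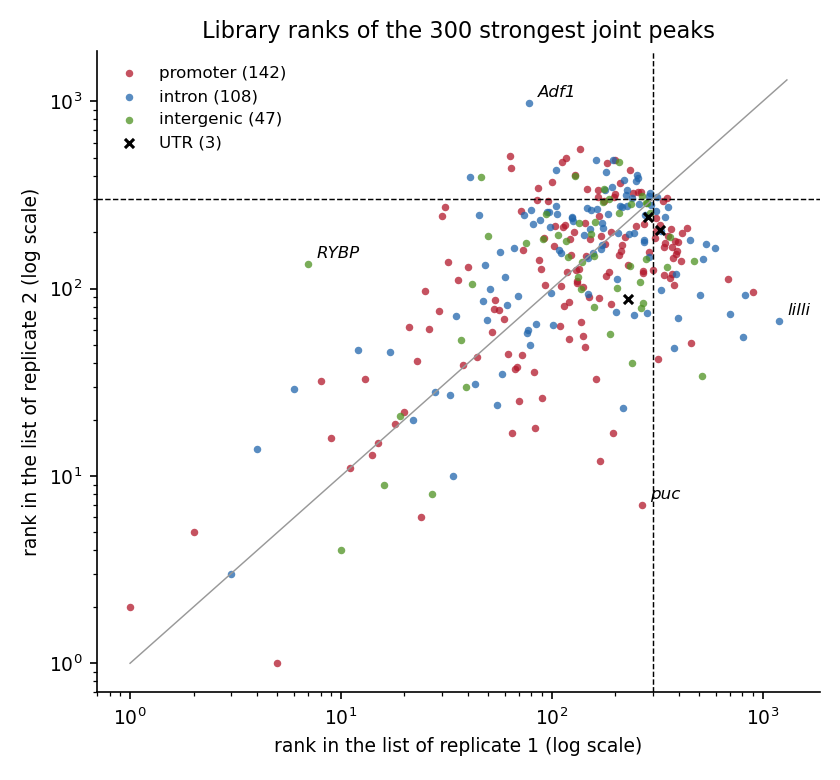
Rank of each of the 300 strongest joint peaks in the list of replicate 1 (x axis, log scale) and of replicate 2 (y axis, log scale), coloured by the position of the summit, with dashed lines at rank 300 and a grey line of equal rank. The 207 peaks in the lower left are among the 300 strongest of both libraries, and puc, lilli, RYBP and Adf1 lie far from the line.

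A few members stood far higher in 1 library than in the other, and ranks are given for replicate 1 and then replicate 2. The member at puc, the phosphatase that restrains JNK signalling, ranked 266 in replicate 1 with a signal of 537 and 7 in replicate 2 with a signal of 1433, a 38-fold difference in rank. Its summit lay 2 bp from a TSS (3R, 8106021 to 8106734). The member in lilli ranked 1199 and 67, the one near CG43389 of joint rank 100 ranked 515 and 34, the Tet member of joint rank 187 ranked 807 and 55, and CG18428 ranked 169 and 12. In the other direction, the member 7633 bp from RYBP, a gene for a Polycomb-associated protein, ranked 7 in replicate 1 with a signal of 1727 and 135 in replicate 2 with a signal of 660. Adf1, a gene for a Myb-related factor, ranked 78 and 976. CG16753 ranked 41 and 394, eIF6 ranked 31 and 271, and CheA75a ranked 46 and 396. Of these 10, the members at lilli, Tet and Adf1 lay outside the 600 strongest peaks of a library. With 2 values for each member, its signal carries no firm error.

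The 300 members were nearest to 278 of 13945 protein-coding genes, 1.99% of them, and all joint peaks together to 3213, or 23%. A single member was nearest to each of 257 genes, and 21 genes had several. Tet, a dioxygenase gene of the family that oxidises methylated bases, was the only one with 3, of ranks 65, 187 and 289, all in its introns. The 300 strongest peaks of replicate 1 shared 231 of the 278 genes, and those of replicate 2 shared 235. Genes named only by a CG number, which marks a predicted gene that has not been named, made up 85 of the 278, 30.6% against 43.7% of all protein-coding genes. Another joint peak beside the member was nearest to 184 of the 278. CG34367 itself was nearest to 0 members and to 0 joint peaks.

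Genes at ranks 26 to 60 covered a wide range of functions, and 24 of these 35 members lay in promoters, 8 in introns and 3 between genes. Proteins of basic metabolism and stress defence were among them. Gapdh2, which encodes a glycolytic dehydrogenase, had a promoter member of rank 39 (X, 15867806 to 15868139) with a signal of 882 in replicate 1 and 1119 in replicate 2. Cat, for the peroxide-degrading enzyme catalase, had a member 312 bp downstream of its TSS with signals of 834 and 1227. Hsp27, a small heat shock protein gene, had one 149 bp upstream with signals of 1076 and 970. Fkbp14, for a prolyl isomerase, and Pal1, for an enzyme that processes peptide hormones, had promoter members of ranks 45 and 46. The cytoskeleton was represented by Act5C, a cytoplasmic actin gene with a member 4701 bp upstream and another of rank 95 at 685 bp, and by CLIP-190, for a microtubule-binding protein. Rtnl1, for a reticulon of the endoplasmic reticulum, had a promoter member of rank 59. HmgZ, for a small HMG-box chromatin protein, had one in an intron. The others in promoters were CG8320, CG1888, CG5611, CG13921, Trp1, CG18428, CG13390, CG46429, Tina-1, tank, CG32772, CG3552, CG31145, Mnat9 and CG5098, next to puc and gish. Those outside promoters were Reph, CG12769, CG43245, CG3726 and CG4496, next to pum, eEF1gamma, Trl and dpp.

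Other genes of sugar and lipid metabolism stood at lower ranks and were picked after their values were seen. No list of such genes was counted, so they have no share to set against that of all genes. Hex-A, for a hexokinase, had a promoter member of rank 98, Zw, for glucose-6-phosphate dehydrogenase, an intronic one of rank 107, and Eno, for enolase, a promoter one of rank 227. LpR2, a lipophorin receptor gene, had an intronic member of rank 77, and Lpin, for the phosphatidate phosphatase lipin, a promoter member of rank 79.

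Gene lists by function were compared with the background of 1.99%, the share of all protein-coding genes nearest to a member. Of 24 lists, 60 genes were nearest to 70 members, and the other 230 members were nearest to genes of no list. The lists overlap in a few genes, so that Lk6, Myc, pnt, shn, brk, sbb, fz, sgg, larp, vri, Hr4 and Eip74EF are counted in more than 1. Large genes and genes in wide gaps between TSS have more sequence from which to be the nearest, and this was not adjusted for, so the number nearest to any joint peak is given beside the main lists.

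Polycomb and trithorax proteins maintain silent and active states of developmental genes. Of 38 genes of these groups and the Brahma remodelling complex, 6 were nearest to a member, 15.8% (6.02 to 31.3%), and 12 to any joint peak. They held 8 members. ph-p and RYBP stood at ranks 19 and 24, and osa, a Brahma complex subunit gene, at rank 20 in an intron 13938 bp from the TSS. Trl, which encodes the GAGA factor, had an intronic member of rank 32 (3L, 14759324 to 14759711), with signals of 1008 in replicate 1 and 1167 in replicate 2. Psc, a subunit of the same Polycomb complex as ph-p, had ranks 90 and 194, and trx, a histone methyltransferase gene, had rank 229. The 300 strongest peaks of replicate 1 named 7 genes of the list and those of replicate 2 named 6. Of 35 other genes for chromatin, insulator and cofactor proteins, 4 were nearest to a member (11.4%, 3.20 to 26.7%) and 17 to any joint peak (48.6%). They were the chromodomain protein gene Chro at rank 14, Tet, the Atrophin corepressor gene Gug at rank 83 and the corepressor gene sbb at rank 241.

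Of 120 listed genes for forkhead, zinc finger and other DNA-binding factors, 11 were nearest to a member, 9.17% (4.67 to 15.8%), and 86 to any joint peak. Of their 16 members 15 were in introns and 1, of rank 152 at cbt, in a promoter. The intron was not always that of the nearest gene: rank 12 at cbt lay in ush and rank 247 at brk in CG1677. The strongest were at cbt, a zinc finger gene, of rank 12, at the forkhead gene jumu of rank 23, at the nuclear receptor gene Hr4 of rank 68 (X, 1951744 to 1952064), 9972 bp from its TSS, and at Eip74EF of rank 124. Further down stood Myc, the growth-driving factor gene, at rank 132, with a member 8747 bp from its TSS, and its antagonist Mnt at rank 196. Homeobox genes, the class of CG34367 itself, were near the background: 2 of 76 were nearest to a member, 2.63% (0.320 to 9.18%), although 39 were nearest to a joint peak. They were NK7.1, with a promoter member of rank 141 and an intronic one of rank 220, and ct, which encodes the homeodomain protein Cut, with rank 243. Factor genes outside both lists, picked after their values were seen, had promoter members too, among them the Sox gene Sox14 at rank 145 and psq, which encodes a BTB-domain factor, at rank 235.

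The ecdysone pathway list holds 30 genes, of which 4 were nearest to a member, 13.3% (3.76 to 30.7%), and 16 to any joint peak. They were Hr4, the ETS factor gene Eip74EF, the nuclear receptor gene Eip75B and Eip93F, a factor gene of metamorphosis, all of them targets of the hormone. Their members lay 1939 to 11854 bp from a TSS and 0 of 5 in a promoter. The member at Eip75B had rank 161 (3L, 18009045 to 18009336) and that at Eip93F rank 222 (3R, 21937125 to 21937462). The count goes by the nearest TSS. Rank 75, in an intron of Eip78C but nearest to CG43218, is thus left out of it.

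Signalling genes were found at several levels of their pathways. Of 43 genes of EGFR, Ras and MAPK signalling 6 were nearest to a member (13.95%, 5.30 to 27.9%), with the ligand gene spi, the kinase genes Raf and Lk6, the phosphatase gene puc, and pnt and aop, which encode the activating and the repressing ETS factor at the end of the pathway. The intronic member at Raf (rank 62; X, 2300539 to 2300854) ranked 51 in replicate 1 and 99 in replicate 2. In BMP signalling 4 of 30 genes were nearest to a member (13.3%, 3.76 to 30.7%). They were the ligand gene dpp, the zinc finger gene shn at ranks 216 and 294, the target repressor gene brk, and sbb. The member at dpp had rank 56 and lay 5264 bp downstream of the TSS in an intron. That nearest to brk had rank 247 and lay in an intron of CG1677, 5438 bp from the TSS of brk. Rank 175 lay in an intron of wit but was nearest to CG32259, so it is not counted here. In the Wnt and Hedgehog pathways 4 of 41 were (9.76%, 2.72 to 23.1%), with the ligand gene Wnt10, the receptor gene fz and the kinase genes gish and sgg. In the Notch pathway 3 of 31 were (9.68%, 2.04 to 25.8%), the ubiquitin ligase gene neur, the target gene E(spl)malpha-BFM and fng, which encodes the glycosyltransferase that modifies Notch. Of 32 genes of Hippo signalling and planar polarity 4 were (12.5%, 3.51 to 28.99%), namely Myc, the cadherin gene ds, fz and the apical polarity gene crb. Of the genes of these 5 lists, 45.2% (Notch) to 69.8% (EGFR, Ras and MAPK) were nearest to a joint peak of any rank, against 23% of all genes.

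**Figure D5:**
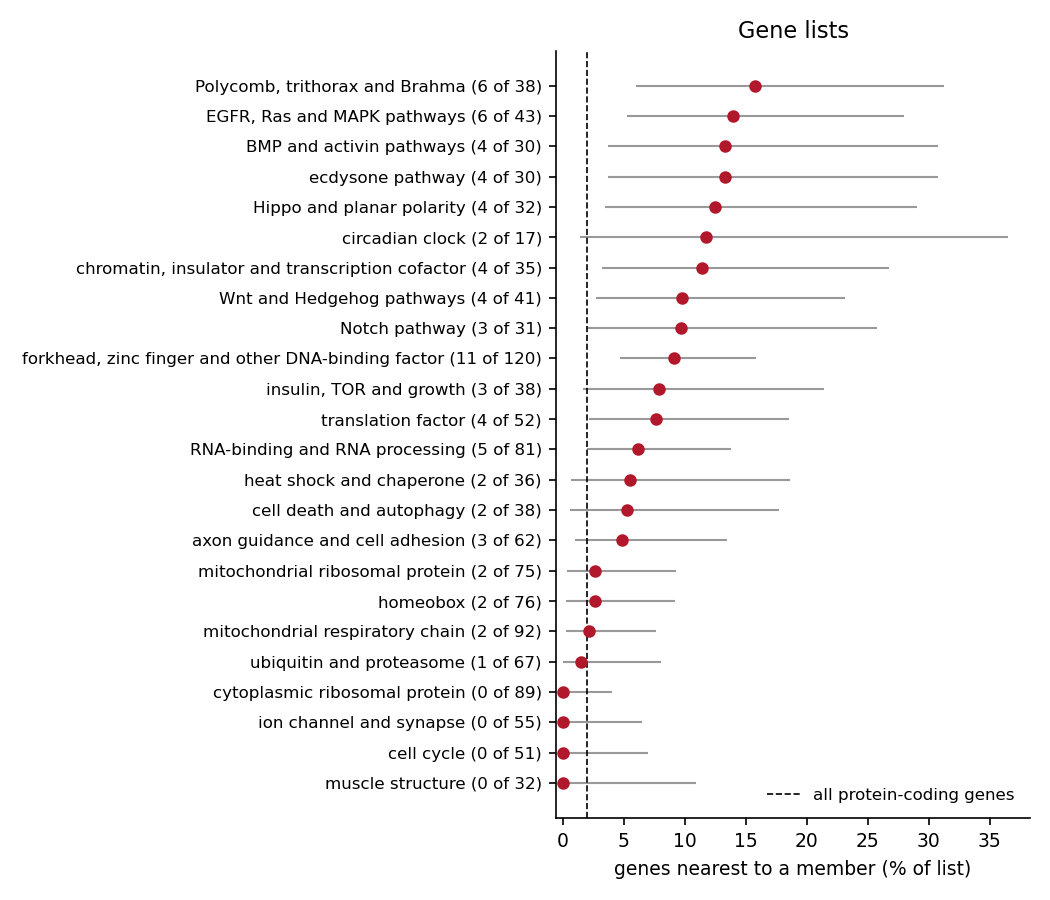
Share of the genes of each list (%) that are nearest to one of the 300 strongest joint peaks, with exact 95% binomial intervals, the counts beside each list's name and a dashed line at the 1.99% of all protein-coding genes. The Polycomb, trithorax and Brahma list is at 15.8%, and cytoplasmic ribosomal protein, ion channel and synapse, cell cycle and muscle structure lists are at 0.

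A set of 10 lists, of chromatin proteins, transcription factors and signalling pathways, was also joined into 451 genes, a split made after the data were seen. Their genes were nearest to 50 members, 16.7% of all members, and to 14.3% of the other joint peaks. Of the 50 members 11 lay in promoters, 22% (11.5 to 35.96%), 30 in introns and 9 between genes. Of the 250 members nearest to any other gene 131 lay in promoters, 52.4% (46.0 to 58.7%). In the 300 strongest of replicates 1 and 2 the shares were 20.4% and 21.4% for the joined lists, against 49.6% and 52.5% for the other genes. The other joint peaks had the same order, with 18.4% against 34.5%. At genes outside the joined lists the promoter share was thus 52.4% for members against 34.5% for the other joint peaks. At genes within them it was 22% against 18.4%, and the interval of the members covers both values.

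Several lists of large gene families were empty or close to the background. Of 89 cytoplasmic ribosomal protein genes 0 were nearest to a member (exact interval 0 to 4.06%), while 68 of them, 76.4%, were nearest to a joint peak of lower rank. The 300 strongest of replicate 1 named 2 of these genes and those of replicate 2 named 0. Of 51 cell cycle genes 0 were nearest to a member and 21 to a lower joint peak. Of 55 ion channel and synapse genes 0 and 12 were, and of 32 muscle structure genes 0 and 6. With so few genes, the exact intervals reach 6.98%, 6.49% and 10.9%. These intervals and that of the cytoplasmic ribosomal protein genes all cover the background of 1.99%. The respiratory chain had 2 of 92, ND-ASHI at rank 200 and COX7AL2 at rank 285. The mitochondrial ribosome had 2 of 75, mRpL41 at rank 11 and mRpL23 at rank 64, both in promoters.

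Of 52 translation factor genes 4 were nearest to a member (7.69%, 2.14 to 18.5%) and 16 to any joint peak. They were larp, an RNA-binding regulator of mRNA, at rank 3, Lk6, a kinase that acts on an initiation factor, at rank 6, the elongation factor gene eEF1gamma at rank 29 and eIF6, for a factor of the large ribosomal subunit, at rank 67. Of 81 RNA-binding and RNA processing genes 34 were nearest to any joint peak and 5 to a member (6.17%, 2.03 to 13.8%). The lower bounds of both lists lie close to the background of 1.99%. The 5 were larp, PNPase at rank 7, the translational repressor gene pum at rank 28 with an intronic member (3R, 9229100 to 9229445), the neuronal gene elav at rank 287 and spen, the last member. Growth control by insulin and TOR had 3 of 38 (7.89%, 1.66 to 21.4%), Lk6, scyl and Myc. Of 38 cell death and autophagy genes 2 were nearest to a member (5.26%, 0.644 to 17.7%). They were the activator hid and the inhibitor Diap1, with members of ranks 224 and 280. The clock list had 2 of 17 (11.8%, 1.46 to 36.4%), vri and sgg. The heat shock list had 2 of 36 (5.56%, 0.680 to 18.7%), Hsp27 and Hsp83. The guidance and adhesion list had 3 of 62 (4.84%, 1.01 to 13.5%). They were the phosphatase gene Ptp10D, the integrin gene scb and the teneurin gene Ten-a. The intervals of the insulin, cell death, clock, heat shock and guidance lists all cover the background of 1.99%.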

How the data were processed

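The report uses narrowPeak lists for replicates 1 and 2, which hold 30000 lines each, and the joint list on assembly dm6. The signal value and the summit offset are scores per peak made by the authors and deposited with the lists. No source used here names the peak caller, its version or the read depth, so the precision of 1 signal is unknown. The 2 libraries are used as biological replicates as the labels number them. Repeated intervals were counted once, which left out 24 lines of the joint list. Library peaks were matched by an overlap of at least 1 bp, and libraries were ranked over distinct intervals.

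TSS were taken from Ensembl release 115. Sequence was read from Release 6 of the genome as RefSeq holds it, which corresponds to dm6. Promoters took precedence over UTRs and coding exons, these over introns and introns over intergenic sequence, and each summit was given the gene with the nearest protein-coding TSS. Coordinates are 1-based. GC weighting used 10 classes of GC content and was added after the data were seen. Of the list symbols 29 were matched through older symbols and 1 was left unmatched.

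The members and lists were chosen with earlier results of these data known. The genes named were those at ranks 26 to 60, those with 3 or more members, the 4 with the highest signal of each list, the 5 with the largest ratio of library ranks in each direction and those of the 2 peaks on either side of the limit. Further list genes, metabolic genes, distant members and neighbouring members were named after their values were seen. Sequences shown are the 3 strongest of each class outside UTRs and coding exons, on arms other than 2R. Alternatives were 150 or 600 peaks, each library alone, promoters of 250 and 1000 bp, windows of 25 and 100 bp, other overlaps and assignment by gene body. The scripts were tested on simulated data. Python 3.11.15, numpy 2.4.6, pandas 2.3.3, scipy 1.17.1 and matplotlib 3.10.9 were used.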

Additional observations from a re-analysis of the deposited data

How the results depend on the processing

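No paired analysis was possible because there is 1 group. Each library alone (ranges over both) gave promoter shares of 44.3 to 46.7%, intron shares of 36.3 to 37%, intergenic shares of 15.7 to 18%, a median TSS distance of 598 to 645 bp, X shares of 19.7 to 20.7%, GC contents of 29.01 to 31.3%, TAATTA shares of 12.3 to 13.3%, 18 to 20.0% of peaks within 10 kb of another and 268 to 277 nearest genes. The 150 strongest joint peaks gave 51.3% in promoters, 31.3% in introns, 17.3% between genes, a median distance of 444.5 bp and 8.67% within 10 kb of another. The 600 strongest gave 42.7%, 40.0%, a median of 814 bp, 12% with TAATTA and 27.8% within 10 kb of another. The share of close neighbours moves with the number of peaks by construction, as it does with a distance of 50 kb (36%). For the other values the cause was not tested. Promoters of 250 bp gave 36.7% in promoters, 42.7% in introns and 17.3% between genes, and promoters of 1000 bp gave 59.0% and 26.3% for the first pair. Windows of 25 and 100 bp gave TAATTA shares of 5.33% and 18%, and the window of 100 bp a GC content of 34.3%; shorter windows hold fewer positions. Other overlaps gave 69.0% and 68.7% of members among the 300 strongest of both libraries, and assignment by gene body gave 275 genes, 250 of them the same. Read depth is unknown, so ranks near 300 carry no error of their own.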

Other observations

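Among all sequences of 6 bases, those with the largest difference between members and other joint peaks were picked after their values were seen and are given as values. ATTTAA lay in 128 member windows, 42.7% against 27.7% of the other joint windows, 33.5% after weighting for GC content and 12% of the member flanks. CTTAAA lay in 82, 27.3% against 14.98%, 17.2% after weighting and 6.83% of the flanks, and the 300 strongest peaks of replicates 1 and 2 gave 25.3% and 26.3%. TTAAAA lay in 131, 43.7% against 31.1%, and 37.8% after weighting. For TTAAAA the libraries differed, with 36.7% in replicate 1, below the weighted share, and 47.7% in replicate 2. For ATTTAA they gave 41% and 39.7%. Whether any of these sequences is bound by CG34367 was not tested.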
